A study of Mus musculus with 18 samples.

Results

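The genes described here carry cholesterol and other lipids between cells of the brain: apolipoproteins, the transporters that load them with sterol, an enzyme that matures the resulting particles, a receptor that takes them up, and regulators of the liver X receptor (LXR) pathway. They were followed in mice that lack Ppt1, which encodes a lysosomal thioesterase that cleaves fatty acids off proteins, and in wild-type mice. The members were Apoe, Clu, Apod, Abca1, Abcg1, Lcat, Mylip, Nr1h2, Lrp1 and Soat1, chosen by gene symbol, and every probe set that the platform annotation assigns to 1 of them alone was taken. A probe set is a group of short oligonucleotides on the array that measures 1 transcript. This gave 16 probe sets of 8 genes, out of 45101 probe sets on the array, and Nr1h2 and Soat1 were not analysed here because no probe set carried their symbol. All 16 passed the filter on low values, and none lay at the background of the bacterial control probe sets on any array.

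RNA was hybridised to 18 arrays in 6 groups of 3, namely knockout at 3 months, knockout at 5 months, knockout at 8 months, wild type at 3 months, wild type at 5 months and wild type at 8 months. The 8-month knockout comprised 2 males and 1 female, and the remaining groups 1 male and 2 females. The labels name the source as both brain and cochlea. They give neither the strain nor how Ppt1 was disrupted, and no treatment, and leave unstated whether replicate arrays are different animals. The p-values therefore reflect sample-to-sample spread, part of which could be technical. Of 12 neuron markers, 12 astrocyte markers and 11 oligodendrocyte markers, none was at background on more than 9 arrays, whereas 9 of 15 cochlear markers were.

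Neurons obtain part of their cholesterol from astrocytes, which make Apoe and Clu particles that are loaded with sterol by Abca1 and Abcg1. LXRs, encoded by Nr1h2 and Nr1h3, are nuclear receptors that sense oxysterols and raise the transcription of Abca1, Abcg1, Apoe and Mylip. Activated astrocytes and microglia are known to raise Apoe and Clu in injured brain.

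The brightest Ppt1 probe set read 0.88 to 23.4 signal units on the 9 knockout arrays and 543 to 629 on the 9 wild-type arrays, with 5 knockout arrays at background. Of the other 4 Ppt1 probe sets, 2 were also called lower in the knockout, 1 was at background on all 18 arrays and 1 was not called (65.4 ± 14.4 for knockout arrays and 59.0 ± 12.8 for wild-type arrays, SD, 9 arrays per genotype). Array medians lay between 43.2 and 46.1 signal units. Within the knockout at 8 months the arrays were uneven. On the first principal component, which held 24.2% of the variance, replicates 1 and 2 lay at 50.7 and 45.6 and replicate 3 at 9.86, while the knockout arrays at 5 months lay between 11.1 and 17.7 and the wild-type arrays between -18.9 and -11.6. For the brightest probe set of Abca1, Apoe, Clu, Apod, Lcat and Lrp1, the change at 8 months is therefore given with and without replicates 1 and 2.

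Averaged over the 3 ages, Abca1, Clu, Apoe, Apod and Lrp1 were higher in the knockout, and the difference was greater at 8 months than at 3 months for Abca1 and Clu. In bulk RNA, more cells of a type and more RNA per cell cannot be told apart. Values were analysed as log2(signal + 16) with limma, and a call is an adjusted p under 0.05 after Benjamini-Hochberg adjustment over 27022 probe sets. Of the 16 probe sets 11 were called higher in the knockout and 0 lower for the mean over ages, against 6.62% of all tested probe sets called higher, 6.02% lower and 12.6% in either direction. The median log2 change was 0.48 over the 16 probe sets and -0.01 over all tested. By gene, taking the brightest probe set, Abca1, Clu, Apoe, Apod and Lrp1 were called, and Lcat, Abcg1 and Mylip were not. At 3 months 0 of 16 passed (of all tested, 0.681% were called higher, 0.274% lower and 0.955% in either direction), although 7 were higher at an unadjusted p under 0.05 and 0 were lower. The count of calls at 3 months was 5 without replicate 3 of the 8-month knockout, and 1 without its replicate 1 or without replicate 3 of the 5-month wild type. Over all tested probe sets these fits gave 444, 353 and 247 calls, against 258 in the main fit. At 5 months 7 of 16 were higher (of all tested, 1.64% were called higher, 0.566% lower and 2.2% in either direction), and at 8 months 12 of 16 (5.74%, 5.91% and 11.6% of all tested in the same order), with 0 lower at either age. When 1 array was left out, the counts were lowest without replicate 2 of the 8-month knockout, 9 for the mean over ages and 8 at 8 months. That fit gave 2510 and 1266 calls over all tested probe sets, against 3418 and 3147 in the main fit. Leaving out replicates 1 and 2 of the 8-month knockout keeps 1 array in that group, so no count is given. The 8-month changes were then 0.91 for Abca1, 0.52 for Clu, 0.49 for Apoe, 0.43 for Lcat and 0.12 for Apod and Lrp1.

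**Figure D1:**
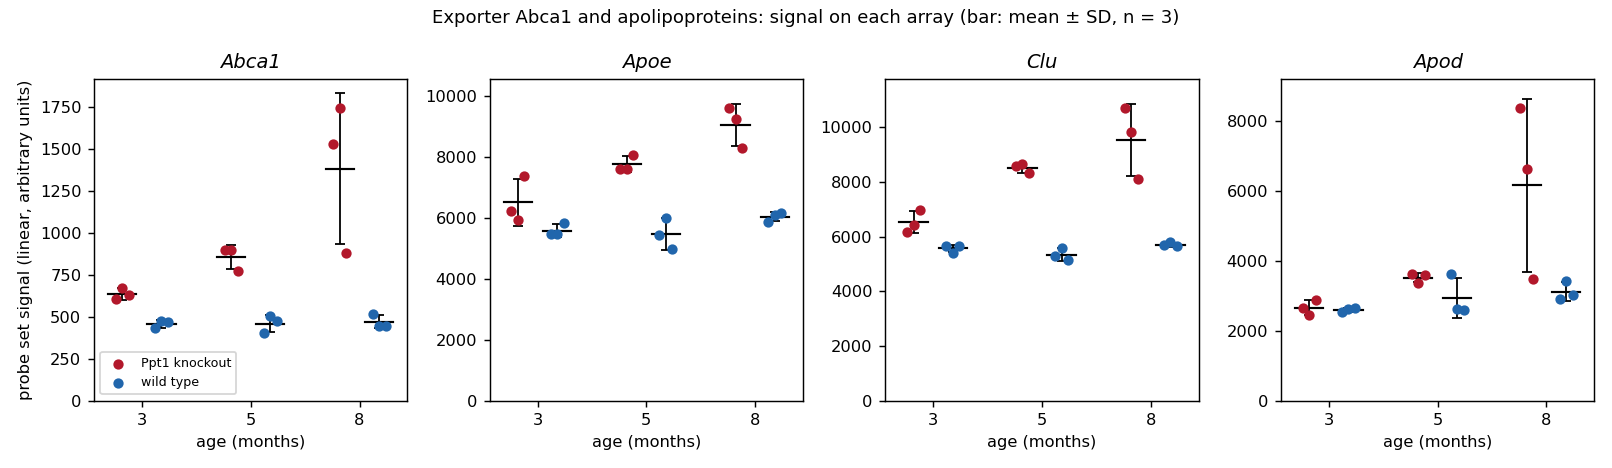
Signal of the brightest probe set of Abca1, Apoe, Clu and Apod (linear scale) against age, with 1 point per array, knockout left of wild type at each age, and a bar for the mean ± SD of 3 arrays. All 9 knockout points of Abca1 and Clu lie above every wild-type point, and the Apod points of the 8-month knockout spread from 3480 to 8358.

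Abca1 encodes the transporter that moves cholesterol and phospholipid across the cell membrane onto lipid-poor apolipoproteins, and it changed most among the members by brightest probe set. At 3 months it read 605, 671 and 630 signal units in the knockout against 432, 475 and 469 in the wild type. At 5 months it read 900, 895 and 772 in the knockout against 403, 503 and 472 in the wild type. At 8 months it read 1529, 1743 and 878 in the knockout against 513, 447 and 446 in the wild type. The groups of the 2 genotypes did not overlap at any age, and replicate 3 of the 8-month knockout lay within the range of the 5-month knockout. The log2 change was 0.46 ± 0.15 at 3 months (standard error, n = 3 each, limma adjusted p = 0.222), 0.88 ± 0.15 at 5 months (adjusted p = 0.00137) and 1.52 ± 0.15 at 8 months (adjusted p = 1.19e-06). The last corresponds to 2.86-fold.

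The increase of Abca1 was itself larger at 8 months than at 3 months, by 1.06 ± 0.22 (limma adjusted p = 0.0203), a test that called 0.718% of all tested probe sets higher, 0.326% lower and 1.04% in either direction. Within the knockout, the level at 8 months was 1.09 ± 0.15 above that at 3 months (adjusted p = 0.000306), whereas the wild type differed by 0.03 ± 0.15 between these ages (adjusted p = 0.99). The rise within the knockout was 0.48 and not called without its replicates 1 and 2 at 8 months (adjusted p = 0.142), and 1.05 and not called when only the groups compared were fitted (adjusted p = 0.0541). Leaving out replicates 1 and 2 of the 8-month knockout gave a change of 0.91 at 8 months (adjusted p = 0.000329), which remained a call, and a difference between 8 and 3 months of 0.45 (adjusted p = 0.291), which did not. The difference between ages was also not called without any 1 of replicate 2 of the 8-month knockout (0.85, adjusted p = 0.0825), replicates 1 or 3 of the 3-month knockout, replicate 2 of the 3-month wild type, and replicates 2 or 3 of the 8-month wild type, where it ran from 1.01 to 1.07 with adjusted p from 0.054 to 0.0664. The other 2 Abca1 probe sets were dimmer. For the mean over ages they were higher in the knockout, by 0.86 ± 0.10 (limma adjusted p = 1.9e-06) and 0.57 ± 0.12 (adjusted p = 0.00382). Their knockout effects at 8 and 3 months differed by 0.45 ± 0.24 (adjusted p = 0.399) and 0.05 ± 0.31 (adjusted p = 0.963). The larger change at 8 months was therefore called on 1 of 3 probe sets.

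Promoter windows of 3 LXR target genes among the members are shown because Abca1 moved most, Apoe less, and Mylip was not called. Each runs from 250 bases before to 50 after the annotated gene start, 5′ to 3′ on the gene's strand, from RefSeq (GRCm38.p6). The Abca1 window is chr4:53159846-53160145 on the minus strand, that of the Apoe start used here chr7:19699139-19699438 on the minus strand, and that of Mylip chr13:45389492-45389791 on the plus strand. Capitals mark matches to 5 motifs searched on both strands: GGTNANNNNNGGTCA (a direct repeat with 4 bases between the repeats, the form bound by LXR), TCACGTGA (core of the lysosomal CLEAR element, which holds an E-box), and 3 short ones. The short ones are the E-box, spelled CACGTG, to which many basic helix-loop-helix factors bind. The next is the TATA box, spelled TATAAA, found near the start of some genes. The last is the GC box, spelled GGGCGG, bound by Sp1.
Abca1: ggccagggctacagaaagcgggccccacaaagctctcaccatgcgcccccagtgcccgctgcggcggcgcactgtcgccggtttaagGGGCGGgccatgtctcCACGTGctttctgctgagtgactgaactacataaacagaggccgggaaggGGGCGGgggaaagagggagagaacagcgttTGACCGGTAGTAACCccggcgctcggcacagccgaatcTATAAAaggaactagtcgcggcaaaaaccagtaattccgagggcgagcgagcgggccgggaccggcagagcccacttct
Apoe: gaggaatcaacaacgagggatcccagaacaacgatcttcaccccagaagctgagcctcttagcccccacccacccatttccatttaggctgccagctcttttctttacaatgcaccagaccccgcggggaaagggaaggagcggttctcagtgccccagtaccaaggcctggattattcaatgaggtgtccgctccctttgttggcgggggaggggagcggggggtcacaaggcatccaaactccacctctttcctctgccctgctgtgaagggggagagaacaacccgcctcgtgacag
Mylip: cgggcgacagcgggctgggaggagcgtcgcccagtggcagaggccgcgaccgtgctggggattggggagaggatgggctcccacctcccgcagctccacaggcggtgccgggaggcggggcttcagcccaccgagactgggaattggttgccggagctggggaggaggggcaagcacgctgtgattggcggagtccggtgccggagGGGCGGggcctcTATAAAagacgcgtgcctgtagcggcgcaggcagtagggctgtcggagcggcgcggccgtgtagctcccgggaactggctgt

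The Abca1 window held the LXR form once, on the opposite strand, from 67 to 53 bases before the start, as did 0.207% of 32851 promoter windows in the table. It also held a TATA box, an E-box and 2 GC boxes, motifs found in 13.6%, 7.15% and 35.7% of windows. Mylip held a TATA box and a GC box, and the Apoe window shown none of the 5. The table lists 3 Apoe starts, of which the second (window chr7:19698572-19698871, minus strand) held 2 overlapping TATA box matches and the third none. Windows of Nr1h2 and Apod held none either, nor did that of Lcat, while those of Lrp1 and Soat1 held 1 GC box each. Of the 10 members 8 had an entry in the table, and Clu and Abcg1 had none. A match is a description of the letters in this window.

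Abcg1, a half-transporter that passes cholesterol to particles that already carry lipid, was not called at any age. Its brightest probe set read 404 ± 28.4 signal units across knockout arrays and 397 ± 21.6 across wild-type arrays (SD, 9 per genotype). The genotypes overlapped at every age. In the order of the 6 group means both 5-month groups came first, then both 3-month groups and then both 8-month groups, and each group overlapped the next. The log2 change over the ages was 0.03, with a 95% interval of -0.08 to 0.14 (adjusted p = 0.787), and at 8 months 0.07, with an interval of -0.12 to 0.26 (adjusted p = 0.689). The dimmer probe set gave -0.03 over the ages, with an interval of -0.24 to 0.19 (adjusted p = 0.903).

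Apoe, the main apolipoprotein of brain lipoproteins, rose in the knockout at 5 and 8 months. At 3 months it read 6228, 5944 and 7395 signal units in the knockout against 5462, 5469 and 5839 in the wild type. At 5 months it read 7627, 7600 and 8073 in the knockout against 5448, 6010 and 4971 in the wild type. At 8 months it read 9611, 9253 and 8301 in the knockout against 5885, 6089 and 6176 in the wild type. Within each age every knockout array lay above every wild-type array, although 1 knockout array at 3 months lay below the highest wild-type array of the later ages. The log2 change was 0.22 ± 0.08 at 3 months (limma adjusted p = 0.26, n = 3 each), 0.51 ± 0.08 at 5 months (adjusted p = 0.000272) and 0.59 ± 0.08 at 8 months (adjusted p = 2.66e-05). The change at 8 months exceeded that at 3 months by 0.38 ± 0.11, which was not called (adjusted p = 0.0924). Of 32 alternative fits 3 called this difference and 29 did not. It was 0.43 and called without replicate 3 of the 8-month knockout (adjusted p = 0.0165), and 0.27 without its replicates 1 and 2. Without replicates 1 and 2 of the 8-month knockout the 8-month change was 0.49 (adjusted p = 0.0173). In the order of group means, the 8-month knockout did not overlap the 5-month knockout, nor that group the 3-month knockout. The 3-month knockout overlapped the 8-month wild type.

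Clu encodes clusterin, also called apolipoprotein J, an extracellular chaperone and lipid carrier made largely by astrocytes. Its brightest probe set read 6170, 6426 and 6969 signal units in the knockout at 3 months against 5640, 5413 and 5657 in the wild type. At 5 months it read 8563, 8659 and 8322 in the knockout against 5295, 5598 and 5135 in the wild type. At 8 months it read 10695, 9824 and 8112 in the knockout against 5680, 5788 and 5643 in the wild type. All 9 knockout arrays lay above all 9 wild-type arrays, on each of the 4 Clu probe sets. The log2 change was 0.23 ± 0.07 at 3 months (limma adjusted p = 0.206, n = 3 each), 0.67 ± 0.07 at 5 months (adjusted p = 4.49e-06) and 0.74 ± 0.07 at 8 months (adjusted p = 9.87e-07). Without replicates 1 and 2 of the 8-month knockout the 8-month change was 0.52 (adjusted p = 0.000613).

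The 4 Clu probe sets gave similar values. Over the ages they ranged from 0.52 ± 0.04 to 0.60 ± 0.04, and at 8 months from 0.74 ± 0.07 to 0.96 ± 0.07. The difference between the changes at 8 and 3 months was called on all 4, from 0.52 ± 0.10 (adjusted p = 0.0195) to 0.72 ± 0.10 (adjusted p = 0.00244). Names ending in _x_at, as for 3 of the 4, mark probe sets some of whose oligonucleotides may match other transcripts, and the fourth has no such mark. For the brightest probe set the difference between ages was 0.30 (adjusted p = 0.244) without replicates 1 and 2 of the 8-month knockout. It was also not called without replicate 2 of the 8-month knockout, replicates 1 or 2 of the 3-month knockout, replicates 2 or 3 of the 3-month wild type, or replicates 1 or 3 of the 8-month wild type, at 0.48 to 0.55 with adjusted p from 0.0509 to 0.0741.

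Apod encodes apolipoprotein D, a lipid carrier of the lipocalin family that is made by oligodendrocytes, astrocytes and perivascular or meningeal cells, and its change was concentrated on 2 arrays. At 3 months its brighter probe set read 2651, 2453 and 2871 signal units in the knockout against 2528, 2609 and 2648 in the wild type. At 5 months it read 3606, 3369 and 3576 in the knockout against 3606, 2614 and 2582 in the wild type. At 8 months it read 8358, 6622 and 3480 in the knockout against 2910, 3418 and 3004 in the wild type. The genotypes overlapped at 3 and 5 months, and at 8 months replicates 1 and 2 of the knockout stood far above all other arrays while replicate 3 lay within the range of the 5-month knockout.

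At 8 months Apod rose by 0.89 ± 0.19 (limma adjusted p = 0.00446, n = 3 each). The change was 0.03 ± 0.19 at 3 months (adjusted p = 0.983) and 0.28 ± 0.19 at 5 months (adjusted p = 0.572). That at 8 months exceeded that at 3 months by 0.86 ± 0.27, which was not called (adjusted p = 0.127). Of 32 alternative fits 3 called this difference and 29 did not. It was 1.21 and called without replicate 3 of the 8-month knockout (adjusted p = 1.68e-05), and 0.09 without its replicates 1 and 2. When only the groups compared were fitted, the 8-month value was 0.89 and not called (adjusted p = 0.0582). Without replicates 1 and 2 it was 0.12, and without replicate 2 alone it was 0.75 (adjusted p = 0.0607). The dimmer Apod probe set read 1176, 446 and 114 in the knockout at 8 months against 97.5, 96.7 and 72.9 in the wild type, with the same order of the knockout arrays, and rose by 1.99 ± 0.46 (adjusted p = 0.00715), a value not refitted without these arrays. Over the ages Apod was 0.40 ± 0.11 higher (adjusted p = 0.0182). This was 0.35 and not called (adjusted p = 0.061) without replicate 2 of the 8-month knockout, and 0.14 without its replicates 1 and 2. With all 18 arrays kept, the call was also lost with a robust variance (adjusted p = 0.0976) and with a variance without trend (adjusted p = 0.0767).

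**Figure D2:**
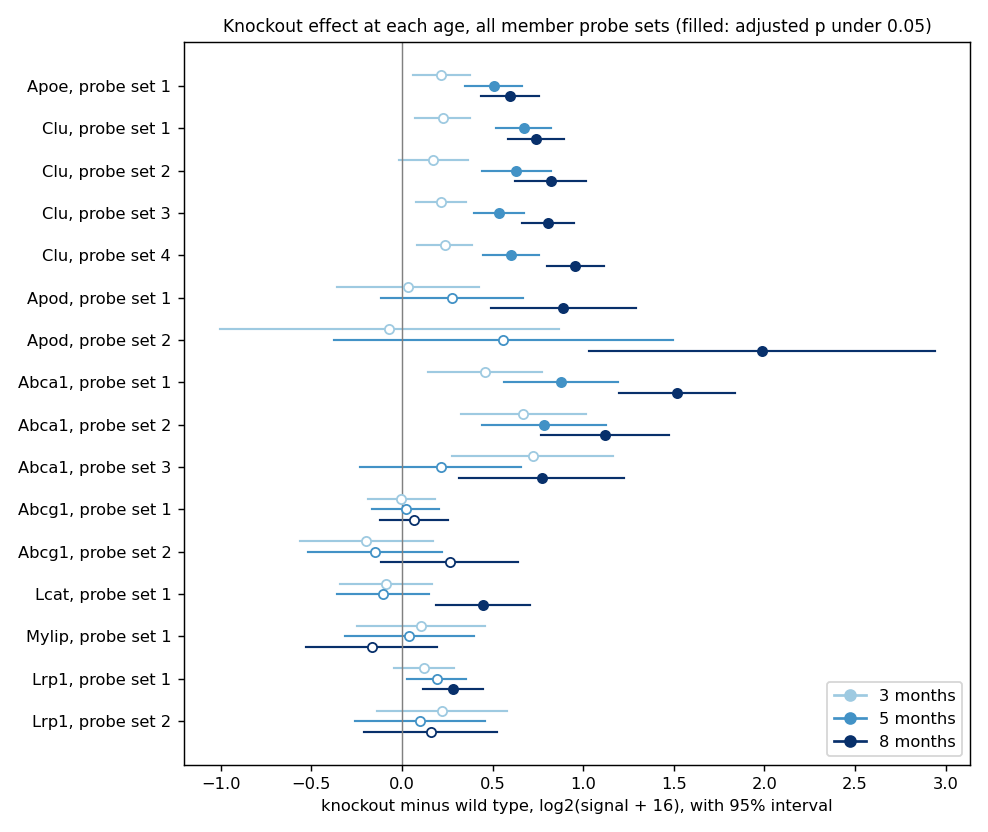
Log2 change, knockout minus wild type, of each of the 16 probe sets at 3, 5 and 8 months with its 95% interval, numbered from the brightest within a gene, with filled points for calls. No point is filled at 3 months, 7 are at 5 months and 12 at 8 months, and the points of Abcg1 and Mylip are unfilled at all 3 ages.

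Lcat, the enzyme that esterifies cholesterol on lipoprotein particles, was called higher in the knockout at 8 months and not at 3 or 5 months. At 8 months it read 323, 251 and 264 signal units in the knockout against 203, 189 and 211 in the wild type, without overlap. The log2 change was 0.45 ± 0.13 at 8 months (limma adjusted p = 0.0228, n = 3 each), against -0.09 ± 0.12 at 3 months (adjusted p = 0.891) and -0.11 ± 0.12 at 5 months (adjusted p = 0.775). The change at 8 months was not called different from that at 3 months (0.54 ± 0.18, adjusted p = 0.143). The 8-month call was lost without knockout replicate 1 (0.34, adjusted p = 0.111), without wild-type replicate 1 (0.48, adjusted p = 0.0645) or 2 (0.40, adjusted p = 0.0835), without knockout replicates 1 and 2 (0.43, adjusted p = 0.232) and with females alone (0.30, adjusted p = 0.245).

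Lrp1 is a large endocytic receptor that binds Apoe particles. For the mean over ages it was slightly higher in the knockout, by 0.20 ± 0.05 at its brightest probe set (limma adjusted p = 0.00592, n = 9 each). It read 662 to 933 signal units in the knockout, with a median of 773, and 649 to 727 in the wild type, with a median of 677. Of the knockout arrays 7 of 9 lay above every wild-type array. At 8 months it read 891, 933 and 764 in the knockout against 727, 712 and 702 in the wild type, a change of 0.28 ± 0.08 (adjusted p = 0.0259) that was no longer called with arrays centred on their medians (0.25, adjusted p = 0.0655). It was also lost without 1 of knockout replicates 1 and 2 or wild-type replicates 2 and 3 of that age, at 0.23 to 0.27 with adjusted p from 0.0762 to 0.186. Without both knockout replicates 1 and 2 the 8-month change was 0.12 (adjusted p = 0.679) and that over the ages 0.14 (adjusted p = 0.0745). The dimmer Lrp1 probe set changed by 0.16 ± 0.10 over the ages and was not called (adjusted p = 0.345).

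Mylip, also known as Idol, is a ubiquitin ligase and LXR target that sends receptors of the low density lipoprotein receptor family for degradation. It read 161 ± 34.4 signal units across knockout arrays and 162 ± 17.4 across wild-type arrays (SD, 9 per genotype). The log2 change was -0.01 over the ages, with a 95% interval of -0.21 to 0.20 (limma adjusted p = 0.972), and -0.17 at 8 months, with an interval of -0.53 to 0.19 (adjusted p = 0.592). In the 8-month knockout it read 122, 223 and 108, the widest spread of its 6 groups.

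**Figure D3:**
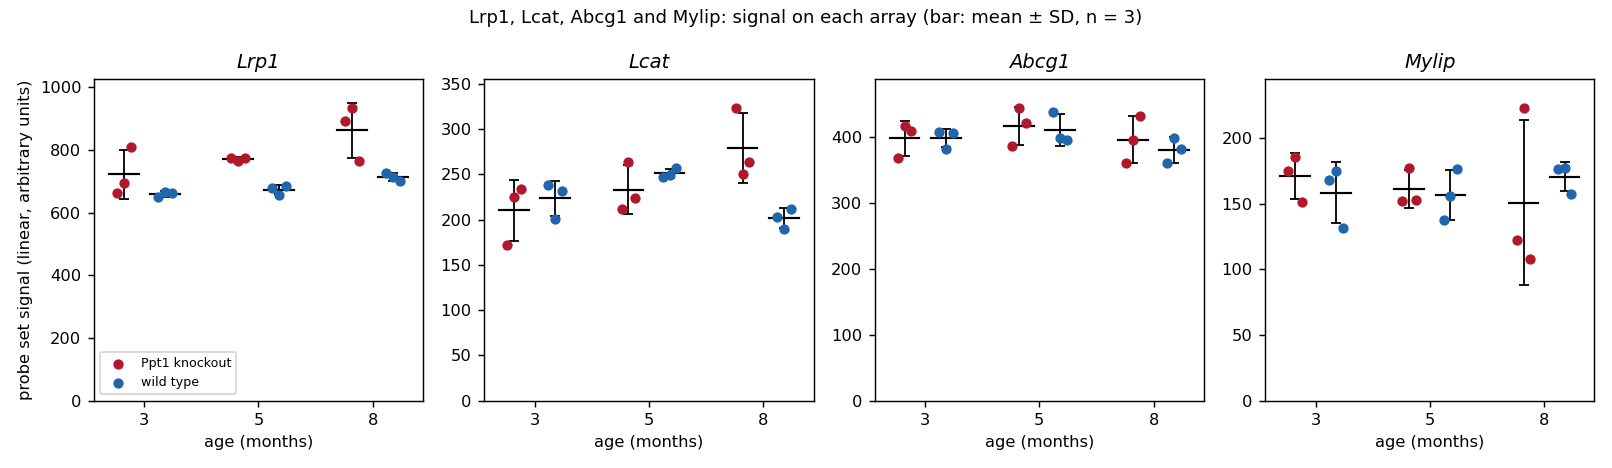
Signal of the brightest probe set of Lrp1, Lcat, Abcg1 and Mylip (linear scale) against age, drawn as for the preceding genes with knockout left of wild type. Lrp1 in the knockout lies at 662 to 933, Lcat separates the genotypes at 8 months, and the Abcg1 and Mylip groups overlap at every age.

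Between 8 and 3 months 9 of 16 probe sets were higher in the knockout and 0 lower (of all tested, 2.9% were called higher, 2.72% lower and 5.62% in either direction). When only the groups compared were fitted that count was 3, with 86 calls over all tested probe sets against 1519 in the main fit. Without replicates 1 and 2 of the 8-month knockout the rises of the brightest probe sets were smaller. They were 0.48 for Abca1, 0.33 for Clu, 0.39 for Apoe and 0.35 for Apod, against 1.09, 0.55, 0.49 and 1.12 in the main fit. In the wild type 0 of 16 were called by limma, 0 had an unadjusted p under 0.05, and of all tested 0.0222% were called higher, 0.0074% lower and 0.0296% in either direction. The changes in the wild type ran from -0.20 to 0.39. These comparisons share arrays with those between genotypes. The test of the difference between the genotypes in this change called 5 of 16 higher and 0 lower (0.718%, 0.326% and 1.04% of all tested in the order above), namely the 4 Clu probe sets and the brightest of Abca1. Without replicates 1 and 2 of the 8-month knockout this difference was 0.45 for Abca1 and 0.30 for Clu, at their brightest probe sets. The count for this difference was 8 without replicate 3 of the 8-month knockout, with 1967 calls over all tested probe sets against 282 in the main fit. It was 2 without any 1 of replicate 2 of the 8-month knockout, replicate 1 of the 3-month knockout, replicate 2 of the 3-month wild type and replicate 3 of the 8-month wild type. It was 3 without replicate 2 of the 3-month knockout or replicates 1 or 2 of the 8-month wild type. The fits with 2 or 3 member calls gave 44 to 133 calls over all tested probe sets.

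Other genes of lipid transport were counted in 5 lists, beside the 6.62% of all tested probe sets called higher and 6.02% called lower for the mean over ages, and no test compared the lists with the members. Of 15 other apolipoproteins on the array, 6 passed the filter on low values. For the mean over ages, 0 of these 6 were called higher and 1 lower, Apol8 by -0.43 ± 0.11 (limma adjusted p = 0.0108). Apoa2, Apoc1, Apoc3 and Apool were dim, with genotype means of 24.9 to 52.0 signal units and standard errors of 0.11 to 0.21. Of 10 other sterol and lipid exporters, 0 were higher and 1 was lower, Abca8a by -0.58 ± 0.12 (adjusted p = 0.00204). Their median changes were 0.10 and 0.01. Abca2, Abca3, Abca5, Abca7 and Abcg4 were among the exporters not called. Of 11 lipoprotein receptors and uptake genes, 3 were higher and 2 lower, with a median of 0.10. Trem2, a lipoprotein-binding receptor of microglia, rose by 1.21 ± 0.18 (adjusted p = 6.76e-05) and the lysosomal membrane protein Scarb2 by 0.23 ± 0.05 (adjusted p = 0.00611). The Apoe receptor Lrp8 fell by 0.24 ± 0.07 (adjusted p = 0.0377), and Lrpap1, a chaperone of this receptor family, fell by 0.12 ± 0.04 (adjusted p = 0.0331).

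Among 13 LXR partners and targets, 4 rose and none fell, with a median of 0.04. The 4 were Srebf1, a transcription factor of lipid synthesis (0.47 ± 0.10, limma adjusted p = 0.00236), Lpl, lipoprotein lipase (0.41 ± 0.07, adjusted p = 0.000423), Smpdl3a (0.32 ± 0.06, adjusted p = 0.000742) and Pltp, which transfers phospholipid to lipoproteins (0.30 ± 0.06, adjusted p = 0.00264). Nr1h3, which encodes LXR alpha, was dim, at 34.2 ± 8.79 signal units for knockout arrays and 40.5 ± 16.7 for wild-type arrays (SD, 9 per genotype), and was not called (-0.09 ± 0.14, adjusted p = 0.731). The targets Fasn and Scd1 gave -0.08 ± 0.07 and -0.04 ± 0.04 and were not called either.

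Genes of cholesterol storage and conversion went both ways, with 6 of 15 higher and 5 lower and a median of 0.06. Npc2, which takes part in the export of cholesterol from the lysosome, read 921 to 1631 signal units in the knockout and 706 to 946 in the wild type. It rose by 0.57 ± 0.06 (limma adjusted p = 5.1e-07). The fatty acid binding proteins Fabp7 and Fabp5 rose by 0.66 ± 0.10 (adjusted p = 9.03e-05) and 0.34 ± 0.04 (adjusted p = 2.35e-06), and Cyp7b1, an oxysterol hydroxylase, by 0.39 ± 0.06 (adjusted p = 0.000186). The other 2 that rose were Plin2, a lipid droplet coat protein, by 0.44, and Lipa, the lysosomal acid lipase, by 0.40. The 5 that fell were Osbpl1a, Cyp46a1, Stard3, Stard4 and Vps13c, by 0.14 to 0.26. Cyp46a1 is the neuronal cholesterol hydroxylase.

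**Figure D4:**
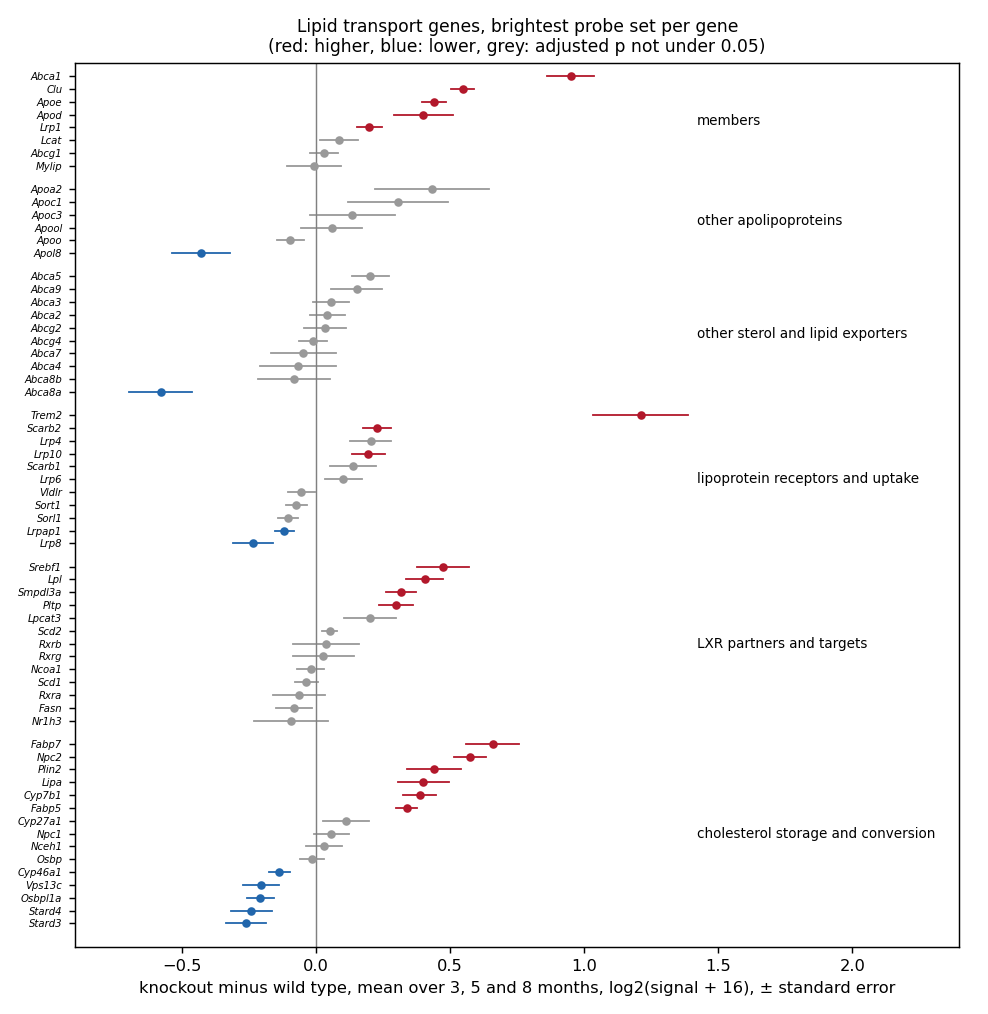
Age-averaged log2 change between knockout and wild type, positive where the knockout is higher (± standard error), of the 8 members and of 5 groups of other lipid transport genes, 1 point per gene. The 5 members called lie right of 0. Of 6 other apolipoproteins that passed the filter on low values 1 was called, and of 10 other exporters 1, both lower.

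Markers of astrocytes and microglia were also higher in the knockout, and their part in these results was not tested. The summed signal of 12 astrocyte markers ran from 23195 to 23849 in the knockout at 3 months, 28695 to 29357 at 5 months and 30150 to 36403 at 8 months, against 22159 to 22481, 21031 to 21884 and 21695 to 22628 in the wild type at these ages. Of these markers 8 of 12 were called higher over the ages and none lower, with Gfap at 2.32 ± 0.06 (limma adjusted p = 1.37e-16) and Aqp4 at 0.98 ± 0.06 (adjusted p = 1.14e-10). The sum of 14 microglia markers was 5016 to 5364, 6345 to 6875 and 5817 to 10320.5 in the knockout at 3, 5 and 8 months, against 3169 to 3319, 3231 to 3962 and 3845 to 4083 in the wild type. Over the ages 10 of 14 were higher, and 1, P2ry12, was lower. Counts by age follow, and no test compared these lists with each other or with the members. At 3, 5 and 8 months 8, 9 and 9 of 14 microglia markers were called higher, with medians of 0.98, 1.07 and 1.12, and 0 of 14 were called for the difference between the effects at 8 and 3 months. Of the astrocyte markers 2, 5 and 10 of 12 were called higher at these ages, with medians of 0.02, 0.24 and 0.51, and 3 of 12 were called for that difference. Counted in the same way, by brightest probe set, 0, 3 and 6 of 8 member genes were called higher at these ages. For the difference 2 of 8 were called.

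Array by array, the 8-month knockout replicates 1, 2 and 3 had astrocyte sums of 36403, 35296 and 30150, microglia sums of 8823, 10320.5 and 5817 and meningeal fibroblast sums of 2974, 3560 and 2122. Replicate 3 was the lowest of its group in all 3, as it was for Abca1, Apoe, Clu, Apod and Lrp1. Over the ages 8 of 12 meningeal fibroblast markers were higher, 0 of 11 oligodendrocyte markers were higher and 1 was lower, and 4 of 12 neuron markers were lower. Of 10 choroid plexus markers and 3 tested blood markers none was called, and 2 of 11 endothelial and mural markers and 1 of 5 tested cochlear markers were higher. The 5-prime to 3-prime ratio of the actin control, a sign of RNA quality, was 0.507 to 0.542, 0.389 to 0.473 and 0.432 to 0.482 in the knockout at 3, 5 and 8 months, against 0.480 to 0.547, 0.412 to 0.499 and 0.501 to 0.525 in the wild type. The Gapdh ratio was 1.34 to 1.39, 1.16 to 1.28 and 1.22 to 1.25 in the knockout at these ages, against 1.31 to 1.38, 1.23 to 1.39 and 1.26 to 1.35 in the wild type. In the knockout both ratios were lower at 5 and 8 months than at 3 months without overlap. At 8 months both were also lower in the knockout than in the wild type without overlap, while at 3 and 5 months the genotypes overlapped. The part of these ratios in the differences between genotypes, in the rise within the knockout and in the other results was not tested.

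The members that rose followed one another across the 18 arrays, described here without a test because the arrays share the 6 groups. Pearson's r was 0.97 between Apoe and Clu, 0.96 between Clu and Abca1, 0.92 between Apoe and Abca1 and 0.82 between Apod and Abca1. For deviations from the group means the same pairs gave 0.72, 0.74, 0.31 and 0.60. Abcg1 gave -0.18 to 0.28 with the other members. For deviations from the group means it gave -0.53 with Abca1, the lowest, to 0.23 with Lcat, the highest. Among all other genes with 1 brightest probe set, those with the highest r with Apoe were Cst3 (0.98), Cd81 (0.96) and Rps4x (0.95), and those with Clu were Ctsb (0.99), Serpina3n (0.98) and Lgals3 (0.98). For Abca1 they were Rida, Sat1 and Ctsb (0.98 each). For Apod they were Fbln5 (0.95), Gpx3 (0.95) and Cyp2d22 (0.94), and for Lrp1 Rnh1 (0.96), Cd53 (0.95) and Gm2a (0.95).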

How the data were processed

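RNA of 18 samples was measured on 1 Affymetrix mouse array each, and groups were taken from the labels, with replicates numbered in record order. The authors deposited 1 linear intensity per probe set and array. The labels name neither software nor scaling. From the deposited values, a mean trimmed by 2% at both ends came to 150.001 for each of the 18 arrays, which therefore share a scale, and no further normalization was applied. No 2 arrays were identical. Probe sets were named from the platform annotation where it gives 1 symbol.

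Values were transformed to log2(signal + 16). After removal of 64 control probe sets and of the dimmest 40% by mean, 27022 were tested. A linear model with 6 groups and an additive sex term was fitted over the whole series using limma 3.58.1 (R 4.3.3; lmFit, then eBayes with a variance trend), two-sided, with Benjamini-Hochberg adjustment over all tested probe sets and a threshold of 0.05. The script was tested on simulated data. Errors after log2 changes are standard errors of the fit. Fold changes are on the log2(signal + 16) scale and understate those of dim genes. Background is the 95th percentile of 27 bacterial control probe sets. The number of arrays, 3 a group, limits the precision.

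The brightest probe set, by its mean over arrays, stands for a gene. From the other lipid lists, up to 4 called genes with the smallest p were described in detail, plus Nr1h3. Gfap, Aqp4, Fasn, Scd1, Vps13c, the exporters not called, P2ry12, Cyp46a1, Plin2, Lipa, Osbpl1a, Stard3 and Stard4 were named after their values were seen. The members and lists were chosen with earlier results of these data known. Other settings tried were pseudocounts of 1 and 64, median centring or quantile normalization, the filter dropped or raised to 60%, the sex term dropped, a robust or untrended variance, array weights, females only, fits on the compared groups alone, a single probe set for each gene, and omitted arrays.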

Additional observations from a re-analysis of the deposited data

Results flagged for a closer look

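The knockout effect differed between 8 and 3 months, by the interaction term of the limma fit, on 5 of the 16 probe sets. For Clu the effect at 8 months exceeded that at 3 months by 0.52 ± 0.10 (adjusted p = 0.0195), 0.65 ± 0.13 (adjusted p = 0.0203), 0.59 ± 0.10 (adjusted p = 0.00505) and 0.72 ± 0.10 (adjusted p = 0.00244) on its 4 probe sets. For Abca1 it did so by 1.06 ± 0.22 (adjusted p = 0.0203) on the brightest of 3. Over 32 alternatives the brightest Clu probe set gave 0.30 to 0.62 with adjusted p from 5.25e-05 to 0.244, and 10 alternatives lost the call. Abca1 gave 0.45 to 1.48 with adjusted p from 2.19e-06 to 0.291, and 9 lost it. The smallest values of both came without replicates 1 and 2 of the 8-month knockout.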

How the results depend on the processing

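Of the counts of member probe sets called, those for the mean over ages, 5 months and 8 months kept their direction under every alternative run, with 0 called lower. With 1 probe set per gene, which leaves 8, the counts were 5 for the mean over ages, 3 at 5 months, 6 at 8 months, 5 for 8 minus 3 months in the knockout and 2 for the difference between the effects at 8 and 3 months. In the same order, that fit called 2023, 423, 1757, 765 and 171 over the smaller set it tested. The main fit called 3418, 595, 3147, 1519 and 282. The fit without replicates 1 and 2 of the 8-month knockout left 1 array in that group, and no count is given for it. Its changes for the mean over ages were 0.75 for Abca1, 0.47 for Clu, 0.40 for Apoe and 0.14 for Apod and Lrp1. In the main fit Abca1, Clu, Apoe, Apod and Lrp1 gave 0.95, 0.55, 0.44, 0.40 and 0.20. At 3 months, where the count was 0, it was 3 with quantile normalization, 1 without the sex term, 6 with array weights, 2 with only the groups compared and 1 with females only. With only the groups compared it was 7 at 8 months and 3 for 8 minus 3 months in the knockout. For the difference between ages it was 0 with a variance without trend, where limma called 0 over all probe sets, and 8 with array weights. Leaving out 1 array at a time gave 9 to 11 for the mean over ages, 0 to 5 at 3 months, 6 to 7 at 5 months, 8 to 12 at 8 months, 7 to 11 for 8 minus 3 months in the knockout, 0 to 0 in the wild type and 2 to 8 for the difference between ages. In the same order, calls over all tested probe sets ran from 2510 to 5028, 123 to 444, 294 to 933 and 1266 to 5369. For the remaining comparisons they ran from 308 to 4301, 0 to 45 and 44 to 1967. Calls over all tested probe sets moved as well. At 3 months they were 258 in the main fit, 668 with array weights and 251 with quantile normalization. They were 267 without the sex term and 468 with only the groups compared at that age. At 8 months they were 3147, and 1185 with only the groups compared. For the difference between ages they were 282, and 1204 with array weights. The causes of these shifts were not tested. Apoe, Clu and Abca1 stayed called for the mean over ages and at 8 months under all 32 alternatives. No paired analysis was possible because the labels give the groups no shared replicate numbers. With 3 arrays a group, small changes such as that of Mylip have wide intervals.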
